A study of Mus musculus with 28 samples.

Results

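Pigment cells of the skin depend on signals from the cells around them. Of the 23015 genes kept from the deposited table, 8 are described here, taken by symbol alone: the receptor genes Kit, Ednrb, Met and Ednra and the ligand genes Kitl, Edn3, Edn1 and Hgf. Their levels were read in 28 libraries, 2 for each of 14 cell populations that had been sorted from mouse back skin at postnatal day 5. All animals were of a mixed FVB/N, C57BI/6J and CD1 background. Values are FPKM (fragments scaled to transcript length and to the library's total), a scale on which levels of different genes can be set side by side.

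A line that carried K14-H2BGFP, in which the keratin 14 promoter drives a green nuclear label in keratinocytes, together with Lef1-RFP gave 8 populations. From the epidermal preparation came Epi, the GFP-positive surface keratinocytes. From the dermal preparation came ORS (outer root sheath, GFP high), Mx (matrix, GFP low), TAC (matrix progenitors that express Shh, GFP low with Lef1-RFP), Mc (melanocytes, Lef1-RFP with CD117), DF (dermal fibroblasts, Lef1-RFP without CD117 or ITGA9), DP (dermal papilla, Lef1-RFP with high ITGA9) and Neg (a mixture of negative cells). A Sox2-GFP line with Lef1-RFP gave papillae named by follicle type: the GFP-negative ones, of zigzag follicles, are ZZ-DP, and the GFP-positive ones, of guard plus awl/auchene follicles, are G/AA-DP. A Crabp1-GFP line with Lef1-RFP split them otherwise, into G-DP for the guard follicles without GFP and AA/ZZ-DP for awl/auchene plus zigzag follicles with it. HF-SC, follicle stem cell precursors with Sox9-GFP, and HF-ORS, sheath cells without it, were both high for K14-RFP and ITGA6, and their labels name no Lef1-RFP. CD117 is the protein of Kit. Kit in Mc, and its difference between Mc and any other population, is thus fixed in part by the sort and is given as a check of it.

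Kit is a receptor tyrosine kinase whose ligand, made by Kitl and held at the cell surface or shed, is required for melanoblasts to survive and to spread through the skin. Endothelins are short peptides cut from longer precursors. Endothelin 3 (Edn3) acts mainly through the G protein coupled receptor of Ednrb, and loss of either gene leaves skin largely without pigment cells, while the receptor of Ednra prefers endothelin 1 (Edn1). Hepatocyte growth factor (Hgf) is secreted as an inactive precursor and acts through Met, another receptor tyrosine kinase, which melanocytes share with many epithelia.

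FPKM sums ran from 285980.6 to 515224 per library and 10951 to 12497 genes reached 1 FPKM. Depth is unknown, so no counting error is given. Mc expressed all 10 melanocyte markers, TAC held Shh at 70.5 and 55.0 FPKM (Mx at 51.5 and 44.2), HF-SC held Sox9 at 182 and 162 FPKM against 20.9 and 28.8 in HF-ORS, and the papilla marker Corin lay at 372.5 FPKM or more in DP and in each papilla sort. The Sox2-GFP line went against its labels in replicate 1. Sox2 lay at 0 and 4.81 FPKM in replicates 1 and 2 of G/AA-DP, sorted as Sox2-GFP-positive, and at 4.87 and 0.09 in those of ZZ-DP, sorted as negative. Values of that line are therefore given for the libraries as labelled, and no direction is drawn from them. Because the labels do not say whether replicates were separate animals, p-values measure the spread between these libraries, which may be technical. That spread was estimated for each gene over all 14 populations together, so the Sox2-GFP libraries enter every comparison. For Met it takes in ZZ-DP replicates at 0.26 and 16.7 FPKM.

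Melanocyte RNA was not confined to Mc. As the median over the 10 markers of the level relative to the Mc mean, it stood at 10.5% and 10.9% in the libraries of DF, 4.91% and 6.66% in Neg, 8.60% and 7.92% in G-DP and 5.14% in ZZ-DP replicate 2, against 0.23% in ZZ-DP replicate 1. TAC had 2.43% and 1.39%, and the other populations lay at or below 0.68%. In bulk samples, fewer cells of a type and less RNA per cell cannot be told apart.

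Kit, on mm10 chromosome 5 (75574987 to 75656722), was at 683 and 784 FPKM in the Mc libraries. G-DP followed at 95.7 and 170, then Neg at 45.0 and 81.3 and DF at 40.2 and 55.4. Mx, at 11.8 and 21.7, TAC, at 13.5 and 18.3, and ZZ-DP, at 3.42 and 20.7, overlapped with one another. DP lay at 9.003 and 5.86, G/AA-DP at 9.31 and 3.82 and AA/ZZ-DP at 4.50 and 5.46. Below them came ORS (2.48 and 4.45), HF-ORS (3.93 and 2.08), HF-SC (1.82 and 0.68) and Epi (0.03 and 0.12). Among neighbours in this order, Mc stood clear of G-DP, G-DP of Neg, DF of Mx and HF-SC of Epi. By narrow gaps, AA/ZZ-DP also stood clear of ORS (4.50 against 4.45) and HF-ORS of HF-SC (2.08 against 1.82). Neg and DF overlapped, as did ORS and HF-ORS and all neighbours from Mx down to AA/ZZ-DP. DF had been sorted as CD117-negative, so its Kit level stands against the gate.

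Ednrb (chromosome 14, 103814615 to 103844508) had the same leading population, at 602 and 458 FPKM in Mc. DF came next at 61.4 and 80.6, and did not overlap with Mc or with G-DP, at 27.8 and 56.4. ZZ-DP, at 16.5 and 54.0, and Neg, at 30.8 and 35.5, overlapped with G-DP. G/AA-DP was at 20.1 and 13.6, TAC at 10.6 and 8.73, DP at 7.89 and 9.32 and AA/ZZ-DP at 9.05 and 7.98. The sheath sorts HF-ORS (2.38 and 7.73) and HF-SC (5.50 and 3.66) overlapped. ORS was at 1.41 and 0.60, Mx at 0.60 and 0.84, and Epi was listed at 0 and at 0.06. Every papilla sort thus had Ednrb above the epithelial populations Epi, ORS and Mx. This did not hold for all epithelial sorts, since TAC overlapped with DP and AA/ZZ-DP. HF-ORS replicate 2, at 7.73, lay close below DP replicate 1, at 7.89.

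Met (chromosome 6, 17463349 to 17573980) was at 137 and 117 FPKM in Mc and had a broader second tier. HF-ORS lay at 19.7 and 29.6, Epi at 17.9 and 22.4, DF at 15.5 and 19.5 and HF-SC at 12.4 and 19.1, each overlapping with the next. Neg (10.6 and 13.2), G-DP (3.78 and 15.2), ORS (7.21 and 10.2) and ZZ-DP (0.26 and 16.7) continued the overlap. TAC was at 2.38 and 1.84, AA/ZZ-DP at 0.48 and 2.05, Mx at 1.13 and 1.27, G/AA-DP at 0.85 and 1.24 and DP at 0.17 and 0.20. Met was thus highest in melanocytes, then in HF-ORS, Epi, DF and HF-SC, with ORS lower and TAC, Mx and DP among the lowest sorts.

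Ednra (chromosome 8, 77663029 to 77724452) had another distribution. TAC was highest, at 93.1 and 95.5 FPKM, followed by DF at 85.5 and 71.2 and DP at 64.9 and 70.3, and these 3 populations did not overlap in that order. AA/ZZ-DP (48.8 and 69.2), G/AA-DP (53.7 and 60.6) and ZZ-DP (46.1 and 66.1) overlapped with one another, and of these AA/ZZ-DP and ZZ-DP also with DP. G-DP was lower at 44.9 and 36.8. Neg was at 24.8 and 20.0 and Mx at 9.57 and 15.5. Mc, at 3.63 and 3.40, overlapped with HF-SC, at 3.59 and 2.27. HF-ORS was at 1.83 and 0.81, ORS at 0.51 and 0.78, and Epi was listed at 0 and at 0.84. Mc thus had far more Ednrb than Ednra, and TAC far more Ednra than Ednrb.

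**Figure D1:**
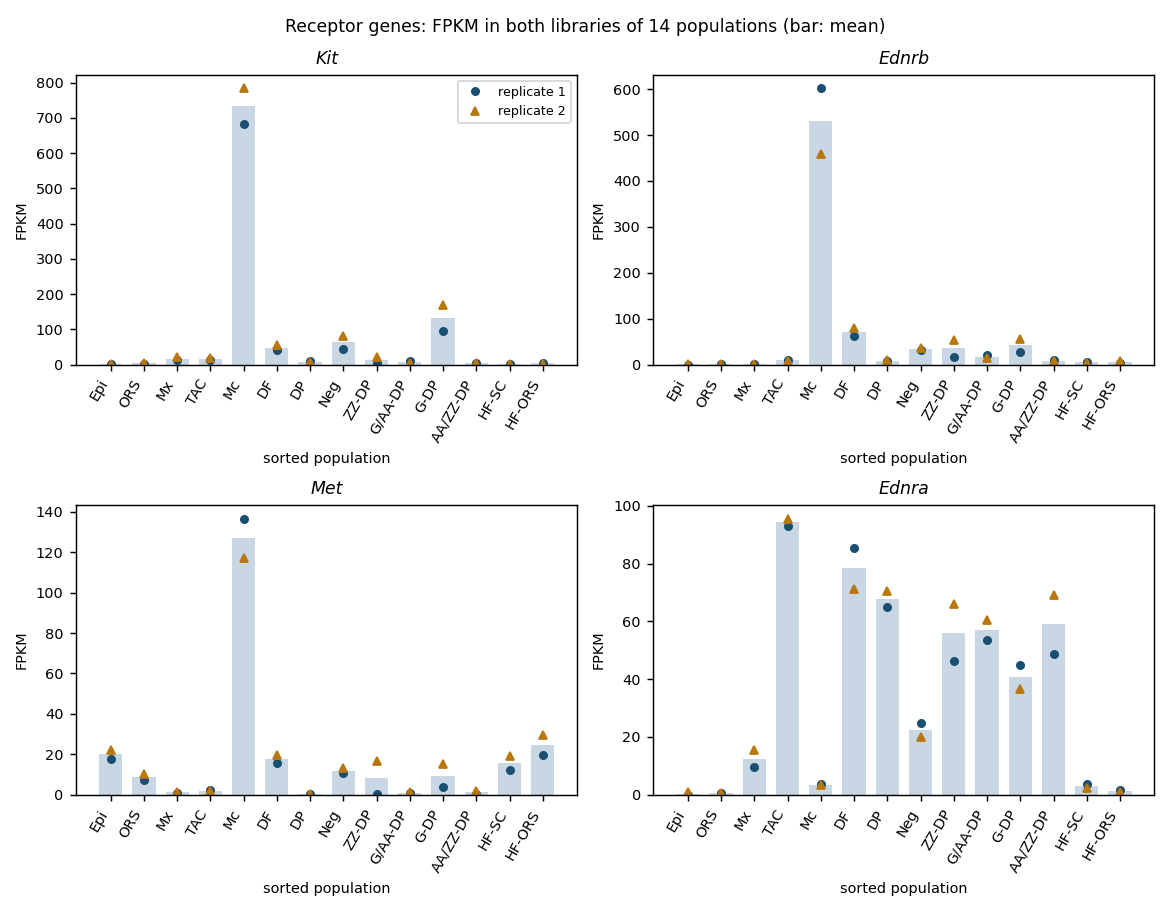
FPKM (vertical axes, from 0, with a scale for each gene) of the receptor genes Kit, Ednrb, Met and Ednra in 14 sorted populations (horizontal axes). Circles are replicate 1, triangles replicate 2 and bars their mean. Kit, Ednrb and Met peak in Mc, at means of 734, 530 and 127, and Ednra in TAC, at 94.3.

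Because Kit, Ednrb and Met shared their highest population, the RefSeq promoter windows of these 3 receptor genes are shown around an annotated start, 5′ to 3′ on the gene's strand, build GRCm38.p6. Letters in capitals mark matches, on either strand, to CATGTG or CACGTG, both forms of the E-box that the melanocyte factor Mitf is known to bind, or to CTTTGNT, the core bound by Lef and Tcf factors. No motif overlaps another here.
Kit (chr5:75574737-75575036, plus strand): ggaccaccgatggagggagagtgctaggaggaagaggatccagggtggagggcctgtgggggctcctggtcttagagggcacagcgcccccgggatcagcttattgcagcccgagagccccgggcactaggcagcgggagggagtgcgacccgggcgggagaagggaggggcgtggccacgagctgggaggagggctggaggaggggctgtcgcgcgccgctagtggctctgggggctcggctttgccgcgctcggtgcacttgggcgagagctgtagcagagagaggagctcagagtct
Ednrb (chr14:103843652-103843951, minus strand): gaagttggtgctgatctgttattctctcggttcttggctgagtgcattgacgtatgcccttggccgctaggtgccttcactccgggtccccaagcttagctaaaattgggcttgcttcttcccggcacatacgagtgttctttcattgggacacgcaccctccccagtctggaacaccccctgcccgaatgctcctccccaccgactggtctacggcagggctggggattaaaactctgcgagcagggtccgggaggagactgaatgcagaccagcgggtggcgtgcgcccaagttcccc
Met (chr6:17463707-17464006, plus strand): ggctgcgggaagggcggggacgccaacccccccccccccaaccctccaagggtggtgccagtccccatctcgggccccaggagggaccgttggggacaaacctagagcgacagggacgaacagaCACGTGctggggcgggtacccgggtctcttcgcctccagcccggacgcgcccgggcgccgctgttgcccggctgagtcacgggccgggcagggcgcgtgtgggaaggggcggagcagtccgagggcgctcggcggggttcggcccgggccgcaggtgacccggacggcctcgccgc

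The Met window held 1 match, CACGTG at position -126 from the start, and the Kit and Ednrb windows held none of the 3 motifs. Of 32851 promoter windows of this length in the table, 7.15% held CACGTG, 14.2% CATGTG and 18.6% CTTTGNT. G and C made up 75.7% of the Met window, 69.0% of the Kit window and 58.7% of the Ednrb window, against a median of 52.7% over all windows. A match is a description of letters and shows no binding.

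Melanocytes were set against their neighbours to see which receptors mark them and which ligands they lack. Calls required an adjusted p below 0.05 and a log2 change of 1 or more. They came from limma on log2(FPKM + 1) with Benjamini-Hochberg adjustment over 15052 genes, and all 8 genes passed the filter on low values. Comparisons of Mc share its 2 libraries. The counts of called members given next include Kit, the gene of the gate, which the sort fixed in part. Of the 8 genes, 6 were called between Mc and DP, 3 higher in Mc (Kit, Ednrb and Met) and 3 lower (Edn3, Ednra and Hgf), where 23.7% of all genes were called. Between Mc and TAC 6 were called, the same receptors higher and Kitl, Edn3 and Ednra lower (21.1% of all genes). Between Mc and Epi 4 were called, all receptors and all higher in Mc (22.7%), and between Mc and DF 6, with Kit, Ednrb and Met higher and Kitl, Edn3 and Ednra lower (18.2%).

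Ednrb was higher in Mc than in DP by a log2 change of 5.78 ± 0.47 (SE, adjusted p = 1.06e-08), than in TAC by 5.63 ± 0.47 (3.99e-08), than in Epi by 8.997 ± 0.47 (2.59e-11) and than in DF by 2.88 ± 0.47 (0.00012). Met was higher than in DP by 6.75 ± 0.75 (adjusted p = 8.17e-07) and than in TAC by 5.36 ± 0.75 (1.68e-05). Against Epi its change was 2.60 ± 0.75 (adjusted p = 0.0133), and the call was lost without either Mc library (0.0763 and 0.0537), without Epi replicate 1 (0.087) or with a pseudocount of 0.1 (0.0764). Against DF it was 2.79 ± 0.75 (adjusted p = 0.0106), lost without Mc replicate 1 (0.0703), without DF replicate 1 (0.0671) or with a pseudocount of 0.1 (0.0667). Ednra went both ways, lower in Mc than in TAC by a log2 change of -4.40 ± 0.32 (adjusted p = 8.52e-09) and higher than in Epi by 1.74 ± 0.32 (0.000293), the second lost with a pseudocount of 5, where the change was 0.66. Among ligands, Edn3 was lower in Mc than in DP by -8.02 ± 0.33 (adjusted p = 1.4e-12), than in DF by -5.33 ± 0.33 (1.16e-09) and than in TAC by -2.19 ± 0.33 (4.48e-05). Kitl was lower than in TAC by -5.69 ± 0.49 (5.26e-08) and than in DF by -3.48 ± 0.49 (2.45e-05). With a pseudocount of 5 the calls of Edn3 against TAC and of Hgf against DP were lost, at changes of -0.92 and -0.72. For Kit, the gene of the gate, the changes ran from 3.93 against DF to 9.41 against Epi.

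**Figure D2:**
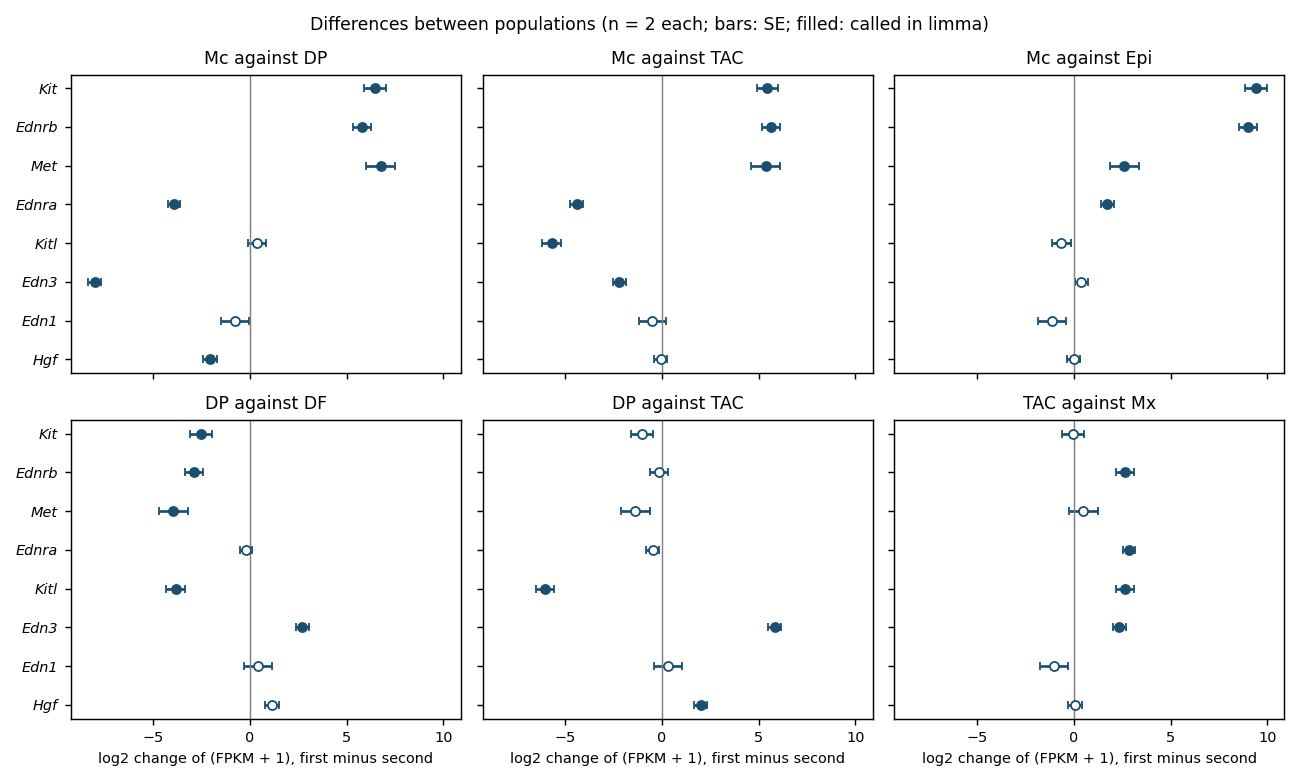
Log2 change of FPKM + 1 between 2 populations (horizontal axes, first minus second; points, with SE as bars; n = 2 libraries each) for the 8 genes in 6 comparisons, with called genes filled. Ednrb and Met lie to the right in every panel with Mc, and Kitl and Edn3 lie on opposite sides when DP is set against TAC.

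The receptors were next read beside the melanocyte markers, library by library, each as a percentage of its Mc mean. In DF, with markers at 10.5% and 10.9%, Kit was at 5.48% and 7.55%, Ednrb at 11.6% and 15.2% and Met at 12.2% and 15.3%. In Neg, with markers at 4.91% and 6.66%, Kit was at 6.13% and 11.1%, Ednrb at 5.81% and 6.70% and Met at 8.32% and 10.4%. Neg also held the mast cell gene Cpa3 at 4.67 and 18.1 FPKM, mast cells being another CD117-positive type. Of 10 mast cell genes, 7 and 8 reached 1 FPKM in the Neg libraries. In HF-ORS 3 and 5 did, with Cpa3 at 1.22 and 10.3, and in HF-SC 3 and 1, with Cpa3 at 2.15 and 0.50. Mc listed Cpa3 at 0 in both libraries. Only Tpsb2 of the 10 reached 1 FPKM there, at 15.4 and 27.3, and 8 were listed at 0 in each Mc library. The part of melanocyte or mast cell RNA in these receptor levels, or in Kit of HF-ORS and HF-SC, was not tested.

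Some receptor levels had no melanocyte signal of like size beside them. In Mx, Kit was at 1.60% and 2.96% of its Mc mean while the markers were at 0.17% and 0.23% and Ednrb at 0.11% and 0.16%. Met in Epi was at 14.1% and 17.6%, with markers at 0.01% in both libraries, and in HF-ORS at 15.5% and 23.4%, with markers at 0.29% and 0.40%. Ednrb in DP was at 1.49% and 1.76%, with markers at 0.20% and 0.16%, and Kit there at 1.23% and 0.80%. This did not hold for every sort: Kit in HF-SC was at 0.25% and 0.09% with markers at 0.46% and 0.27%. In TAC, Kit was at 1.83% with markers at 2.43% in replicate 1, and at 2.50% with markers at 1.39% in replicate 2.

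**Figure D3:**
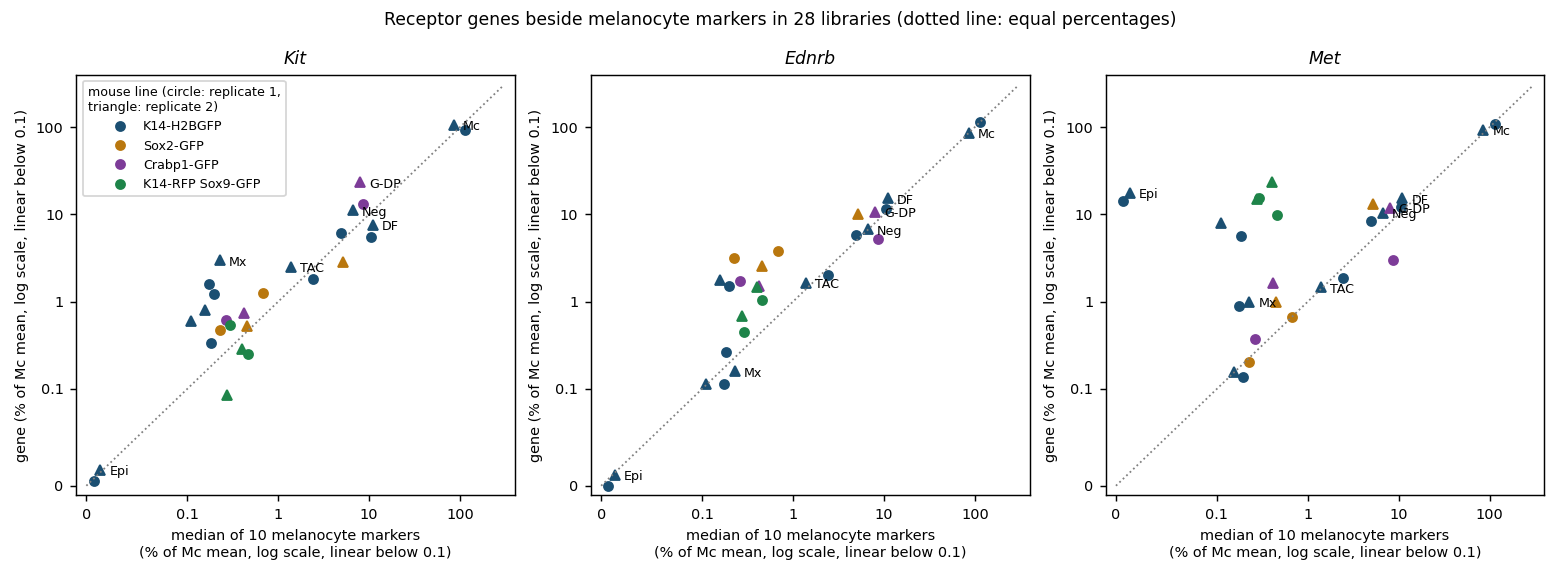
Level of Kit, Ednrb and Met (vertical axes) against the median of 10 melanocyte markers (horizontal axes), both in percent of the Mc mean on log scales that turn linear below 0.1, with 1 point per library, coloured by mouse line. Points near the dotted line, such as DF for Ednrb, have equal percentages, and Epi lies above it for Met and Mx for Kit.

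Kitl (chromosome 10, 100015615 to 100100416) was led by TAC, at 88.5 and 212 FPKM. DF (33.8 and 24.6), Mx (16.0 and 27.4) and Neg (12.4 and 22.7) followed and overlapped with their neighbours. HF-SC was at 11.96 and 12.3, G-DP at 4.86 and 13.2, HF-ORS at 4.36 and 9.001 and ORS at 4.68 and 4.93, each overlapping with the next. AA/ZZ-DP (2.75 and 5.07), ZZ-DP (2.096 and 4.35), Epi (2.87 and 3.57) and G/AA-DP (2.81 and 3.51) overlapped as well. Mc, at 1.96 and 1.43, and DP, at 0.63 and 1.68, were lowest. The Kit ligand gene was thus highest in the Lef1-RFP-positive matrix and lowest in DP and in the melanocytes themselves, with the other papilla sorts in between. DF held keratinocyte markers at a median of 21.4% and 5.04% of the ORS mean, and Neg at 70.5% and 47.2%. Shh was at 50.1 and 7.99 FPKM in DF and at 30.0 and 19.7 in Neg. The other papilla sorts held keratinocyte markers at 3.30% to 14.5%, against 1.14% and 2.38% in DP. They also come from other mouse lines than DP, so their gap from DP in Kitl cannot be told apart from a difference between lines. The part of keratinocyte RNA in the Kitl levels of DF, Neg and these papilla sorts was not tested.

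Edn3 (chromosome 2, 174760619 to 174784042) was led by the papilla sorts. G/AA-DP (291 and 412 FPKM), DP (302 and 384), AA/ZZ-DP (281 and 366) and ZZ-DP (342 and 259) overlapped with one another, G-DP was lower at 102 and 167, and DF lower again at 40.7 and 66.4. TAC was at 4.26 and 5.91 and HF-SC at 2.37 and 1.27. All libraries of HF-ORS, Mc, ORS, Mx, Neg and Epi were under 1 FPKM, with Epi listed at 0 in both. TAC Edn3 was at 1.24% and 1.72% of the DP mean, where the median of 8 papilla markers was at 1.82% and 1.63%. In DF, Edn3 was at 11.8% and 19.3% beside papilla markers at 11.5% and 20.7%. These markers include Itga9, Sox2 and Crabp1, on whose protein or GFP label papilla sorts were gated. Such medians are thus fixed in part by the sorts. The part of papilla RNA in Edn3 of TAC or DF was not tested.

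Edn1 (chromosome 13, 42301476 to 42307990) was highest in the sheath sorts. HF-SC had 38.5 and 48.1 FPKM and HF-ORS 24.5 and 43.5, which overlapped. ORS, at 9.24 and 8.10, and Neg, at 7.36 and 9.69, overlapped with each other below them. Mx was at 5.09 and 1.55 and Epi at 2.09 and 1.91. No library of the remaining populations exceeded the 4.77 of G-DP replicate 2, and Mc had 0.90 and was listed at 0. ORS and HF-ORS bear similar names but come from different mouse lines and gates, so their gap in Edn1 cannot be told apart from a difference between lines.

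Hgf (chromosome 5, 16553495 to 16619439) was low throughout. AA/ZZ-DP (3.95 and 3.78 FPKM) and DP (4.07 and 2.52) led and overlapped. ZZ-DP (1.98 and 0.47), G/AA-DP (0.27 and 1.73), DF (1.12 and 0.76) and G-DP (0.80 and 0.85) followed. The other populations were at or below 0.32, and Epi, ORS, Mx and Mc were listed at 0 in all their libraries. An exact 0 can be a failed estimate, since Malat1, a widely expressed non-coding RNA, was listed at 0 in 10 of the 28 libraries. Exons of Hgf share bases in GENCODE with Gm43489, and those of Edn1 and Ednra with Gm47118 and 4933431K23Rik on the other strand, and reads of such partners cannot be separated here.

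**Figure D4:**
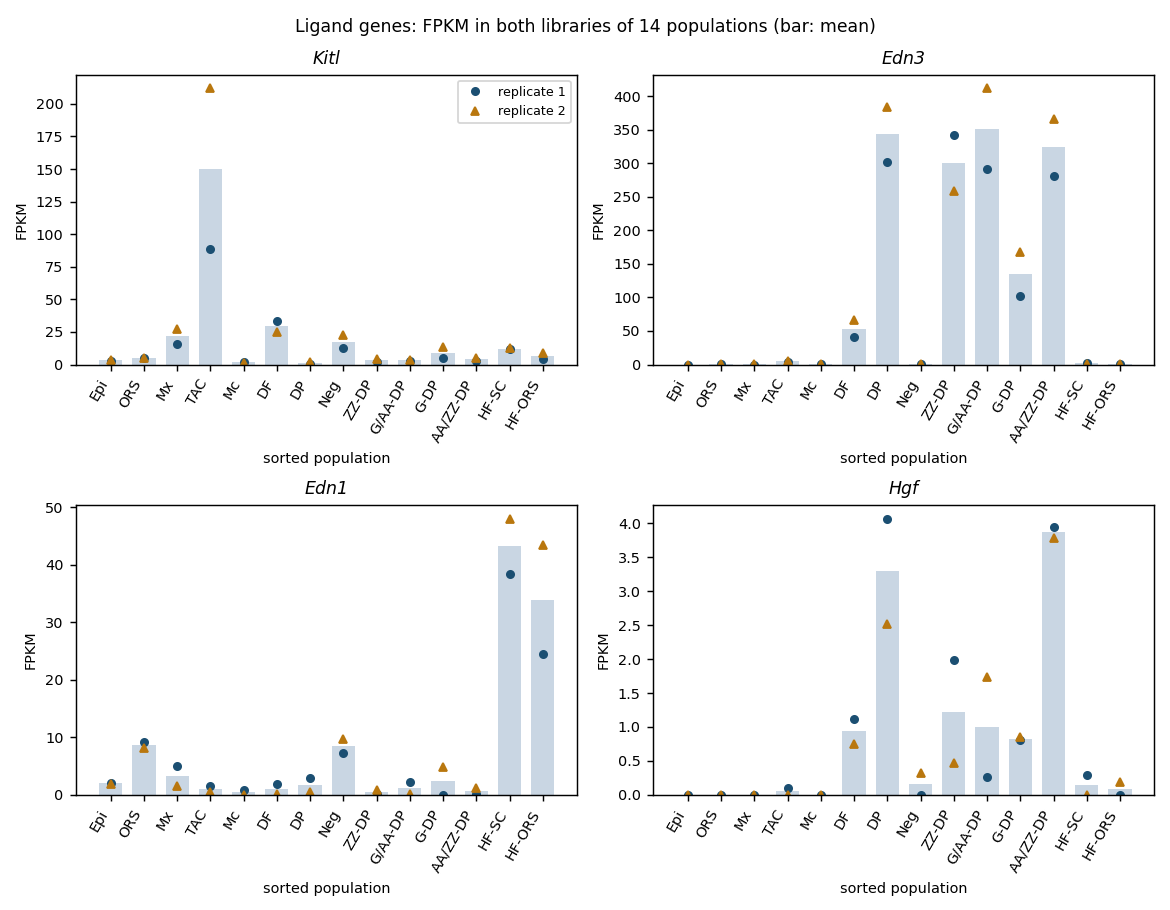
FPKM (vertical axes, from 0, with a scale for each gene) of the ligand genes Kitl, Edn3, Edn1 and Hgf in 14 sorted populations (horizontal axes). Circles are replicate 1, triangles replicate 2 and bars their mean. Kitl peaks in TAC at a mean of 150, Edn3 in the papilla sorts, Edn1 in HF-SC at 43.3, and Hgf stays at or below 4.07 in every library.

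The ligand sources were compared directly between papilla and matrix progenitors. Of the 8 genes, 3 were called between DP and TAC (27.5% of all genes): Edn3 was higher in DP by a log2 change of 5.83 ± 0.33 (SE, limma, adjusted p = 6.31e-10), Hgf was higher in DP by 2.01 ± 0.35 (0.000151), and Kitl was lower in DP by -6.05 ± 0.49 (2.47e-08). With a pseudocount of 5, where its change was 0.71, Hgf lost the call. Met was at 0.19 ± 0.02 FPKM in DP and 2.11 ± 0.38 in TAC (adjusted p = 0.179), called lower in DP with a pseudocount of 0.1 (0.042) or with only this mouse line in the fit (0.00146). Ednra was at 67.6 ± 3.87 FPKM (SD, n = 2) in DP and 94.3 ± 1.69 in TAC without a call (adjusted p = 0.292, 95% interval of the log2 change from -1.15 to 0.20).

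Against DF, the other dermal population, 5 of the 8 genes were called in DP, where 6.69% of all genes were. Edn3 was higher in DP by a log2 change of 2.69 ± 0.33 (adjusted p = 4.05e-05). Kitl was lower by -3.84 ± 0.49 (4.73e-05), Ednrb by -2.90 ± 0.47 (0.000459), Met by -3.96 ± 0.75 (0.00199) and Kit by -2.54 ± 0.56 (0.00667). Kit lost its call without DP replicate 2 (adjusted p = 0.0708) or DF replicate 2 (0.0534). Beside Kitl and these 3 receptors, all 10 melanocyte markers were called lower in DP, with sums of 18.0 and 25.8 FPKM against 1402 and 1391 in DF. Also called lower in DP were 7 of 9 keratinocyte markers and 5 of 7 pericyte and smooth muscle markers. Of 7 Schwann cell markers 5 were called lower in DP and 1 higher. The part of these cells' RNA in the calls of Kitl, Kit, Ednrb and Met was not tested. Hgf missed a call (log2 change 1.13 ± 0.35, adjusted p = 0.0546), which it gained with quantile normalization (0.0138), with no filter on low values (0.0435) or with only this mouse line in the fit (0.00654).

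TAC and Mx were both sorted as GFP low, TAC with Lef1-RFP in addition. Of the 8 genes, 4 were called, all higher in TAC, where 1.27% of all genes were called. Ednra was higher by a log2 change of 2.85 ± 0.32 (adjusted p = 0.000193), Kitl by 2.65 ± 0.49 (0.00696), Ednrb by 2.63 ± 0.47 (0.00551) and Edn3 by 2.35 ± 0.33 (0.000679), while Kit was at 15.9 ± 3.43 and 16.7 ± 7.03 FPKM. Kitl lost its call without TAC replicate 2 (adjusted p = 0.131) or Mx replicate 1 (0.134). Ednrb lost it without TAC replicate 1 (0.0664), without Mx replicate 1 (0.0791) or with a pseudocount of 5 (0.0774), and Edn3 with a pseudocount of 5 (0.0757).

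Markers of other cells were higher in TAC in the same comparison. Of 7 fibroblast markers 5 were called higher in TAC, with a median of 5.84% and 4.85% of the DF mean against 0.25% and 0.35% in Mx. The sums of all 7 were 514 and 461 FPKM in TAC and 493 and 420 in Mx, since Dcn, a matrix proteoglycan gene, was high in both. Melanocyte markers summed to 279 and 184 FPKM in TAC and to 29.9 in each library of Mx. None of the 10 was called in limma, though 9 had an unadjusted p under 0.05. Of 8 papilla markers 5 were called higher in TAC. For Ednrb and Edn3 the part of these cells' RNA was not tested. Ednra in TAC was at 138% and 141% of its DP mean and above both DF libraries. The median papilla marker there was at 1.82% and 1.63% of its DP mean, and the median fibroblast marker at 5.84% and 4.85% of its DF mean. Dcn stood apart from that median, at 307 and 294 FPKM in TAC, 310 and 705 in DF and 482 and 407 in Mx. The part of papilla or fibroblast RNA in Ednra was not tested.

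Among keratinocytes of the K14-H2BGFP line, 1 of the 8 genes was called between ORS and Epi (9.83% of all genes). Kit was higher in ORS by a log2 change of 2.01 ± 0.56 (adjusted p = 0.022), at 3.46 ± 1.39 against 0.08 ± 0.06 FPKM. That call was lost without ORS replicate 2 (0.212), without Epi replicate 1 (0.126) or 2 (0.0912), with quantile normalization (0.0815) or with a pseudocount of 5 (0.372). Edn1 was at 8.67 ± 0.81 in ORS and 2.00 ± 0.13 in Epi (log2 change 1.69 ± 0.72, adjusted p = 0.179). Ednrb, at 1.01 ± 0.57 and 0.03 ± 0.04 FPKM (adjusted p = 0.285), was called higher in ORS with a pseudocount of 0.1 (0.000806). Met was at 8.69 ± 2.101 and 20.1 ± 3.16 (adjusted p = 0.486), and was called lower in ORS with only this line in the fit (0.0133). Between HF-SC and HF-ORS none of the 8 was called in limma, 2 had an unadjusted p under 0.05, and 4.4% of all genes were called. Kitl stood there at 12.2 ± 0.27 in HF-SC and 6.68 ± 3.28 FPKM in HF-ORS (log2 change 0.85 ± 0.49, adjusted p = 0.414).

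In the Crabp1-GFP line, Crabp1 itself was at 630 and 421 FPKM in G-DP, which was sorted without GFP. In AA/ZZ-DP, sorted with it, Crabp1 was at 1866 and 1150. None of the 8 papilla markers, Crabp1 among them, was called between these sorts in limma. Within this line, G-DP differed from AA/ZZ-DP in 2 of the 8 genes described here, where 0.505% of all genes were called. Kit was at 95.7 and 170 FPKM in G-DP and at 4.50 and 5.46 in AA/ZZ-DP, a log2 change of 4.43 ± 0.56 (adjusted p = 0.000317), called under every alternative run for it. Ednrb was at 42.1 ± 20.3 against 8.51 ± 0.76 (2.097 ± 0.47, adjusted p = 0.0466), and lost its call without G-DP replicate 2 (0.561), without AA/ZZ-DP replicate 1 (0.152) or 2 (0.368), with a pseudocount of 0.1 (0.13) or with no filter (0.0755). Met was at 9.48 ± 8.07 and 1.26 ± 1.11 without a call (adjusted p = 0.411).

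Melanocyte markers differed between these papilla sorts in the same direction. Of the 10, 6 were called higher in G-DP, and all 10 were at 1 FPKM or more in both of its libraries, with sums of 1133 and 1097 FPKM against 53.8 and 68.3 in AA/ZZ-DP. Mlana, a melanosome gene, was at 670 and 321 in G-DP and at 23.0 and 21.1 in AA/ZZ-DP. Kit in G-DP was at 13.0% and 23.2% of its Mc mean beside markers at 8.60% and 7.92%, and the part of melanocyte RNA in Kit and Ednrb there was not tested. Among ligands, Edn3 was at 134 ± 46.4 in G-DP and 324 ± 60.3 in AA/ZZ-DP (log2 change -1.29 ± 0.33, adjusted p = 0.118), called lower with a pseudocount of 5 (0.0206). Papilla markers were at a median of 72.4% and 54.0% of the DP mean in G-DP and at 106% and 113% in AA/ZZ-DP. Crabp1, the gene of this line's GFP label, is one of these markers, so the medians are not independent of the sort. Hgf was at 0.83 ± 0.03 and 3.87 ± 0.12 FPKM (adjusted p = 0.0924).

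In the Sox2-GFP line none of the 8 genes was called between the libraries labelled G/AA-DP and ZZ-DP, none had an unadjusted p under 0.05 in limma, and 1 of all 15052 genes was called (0.00664%). Met was at 0.26 and 16.7 FPKM in the libraries labelled ZZ-DP and at 0.85 and 1.24 in those labelled G/AA-DP. Without ZZ-DP replicate 1 the log2 change of Met, G/AA-DP minus ZZ-DP as labelled, was -3.12, and no direction is drawn from it. The replicate then left in ZZ-DP is the one with melanocyte markers summing to 760 FPKM, against 31.9 in the other. Edn3 was at 259 or more in all 4 libraries.

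Ligand and receptor were also compared within each library. Kitl exceeded Kit in both libraries of Epi, ORS, Mx, TAC, HF-SC and HF-ORS, all of them epithelial sorts, and Kit exceeded Kitl in the other 8 populations. Edn3 exceeded both Ednrb and Ednra in all 5 papilla populations and in no other. Edn1 exceeded Ednrb in Epi, ORS, Mx, HF-SC and HF-ORS. Hgf exceeded Met in both libraries of DP and AA/ZZ-DP alone. Ligand and receptor both reached 5 FPKM in each library of Mx, TAC, DF and Neg for Kitl and Kit, and of DF and the 5 papilla populations for Edn3 and Ednrb. For Hgf and Met no population did so.

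Over the 14 population means of log2(FPKM + 1), the Pearson correlation was 0.10 for Kitl and Kit, 0.28 for Edn3 and Ednrb and -0.58 for Hgf and Met. It was 0.77 for Edn3 and Ednra, -0.61 for Edn1 and Ednra and 0.85 for Kit and Ednrb. The points include 5 sorts of the papilla and several populations with melanocyte RNA, so they are not independent, and the values only describe how the levels lie.

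**Figure D5:**
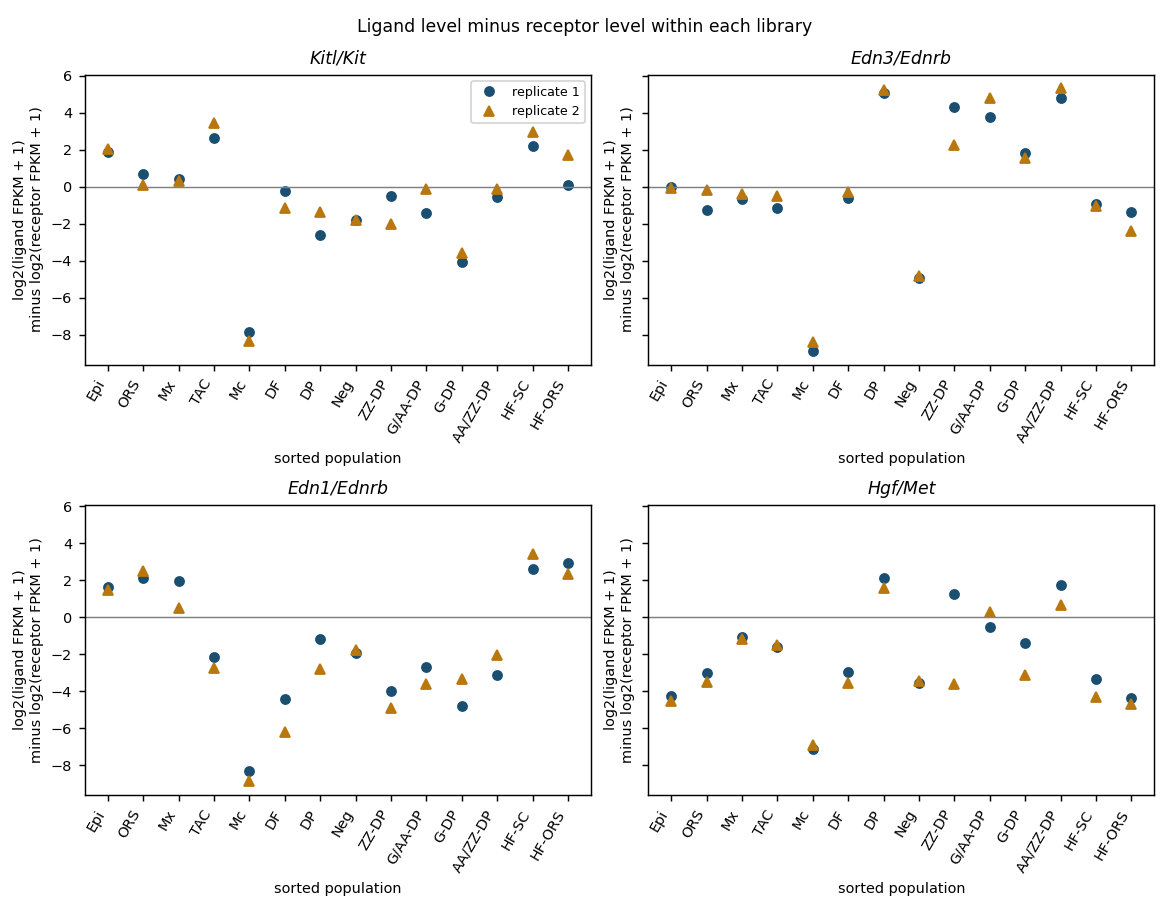
Log2(FPKM + 1) of the ligand minus that of the receptor (vertical axes) in each library of 14 populations (horizontal axes) for 4 pairs, with circles for replicate 1 and triangles for replicate 2. Values above 0 mean more ligand than receptor, as for Edn3 over Ednrb in the 5 papilla populations and for Kitl over Kit in the 6 epithelial ones.

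Genes with the pattern most like each member over the 14 population means were sought among 11259 genes. For Kit these were Npy (Pearson correlation 0.97), Slc45a2 (0.95, one of the melanocyte markers above) and Mlph (0.94), and for Ednrb Plxna4 (0.96), Ddah1 (0.96) and Bace2 (0.95). Met was most like Rab38 (0.95), Tmem51 (0.93) and Etl4 (0.90), and Ednra like Tmem38b (0.94), Tshz3 (0.93) and Hecw2 (0.92). Among ligands, Edn3 was closest to Rspo3, Chodl and Hhip, each at 0.997 or above, and Rspo3 and Hhip are among the papilla markers used here. Kitl was closest to Nfe2l3 (0.94), Jakmip2 (0.93) and Krtap3-3 (0.93), Edn1 to Ptgs2 (0.94), Edn2 (0.94) and Slpi (0.93), and Hgf to Rgs7 (0.99), Nell1 (0.98) and Khdrbs2 (0.97). Edn2, the third endothelin gene, was highest in HF-ORS, as were Ptgs2 and Slpi.

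Other genes of endothelin processing and signalling were read in the same populations. Ece1, encoding the enzyme that cuts endothelins from their precursors, was at 121 ± 22.6 FPKM in DP, 84.6 ± 15.0 in Epi, 65.7 ± 2.66 in Mx, 42.8 ± 3.02 in DF, 28.0 ± 4.97 in TAC and 4.80 ± 2.29 in Mc. It was higher in DP than in DF (log2 change 1.46 ± 0.27, adjusted p = 0.00143) and lower in TAC than in Mx (-1.21 ± 0.27, 0.0252). Plcb4, a phospholipase C gene downstream of G protein coupled receptors, was at 42.5 ± 12.2 in Mc and 4.20 ± 0.65 in DP (3.04 ± 0.44, adjusted p = 2.08e-05). Gnaq, encoding the G protein subunit that couples to such receptors, was at 53.2 ± 13.7 in Mc against 11.3 ± 1.56 in TAC (2.12 ± 0.28, 1.02e-05). Of the 9 genes of this list, 3 were called between Mc and DP (1 higher and 2 lower in Mc; 23.7% of all genes), 3 between Mc and TAC (2 and 1; 21.1%), 3 between Mc and Epi (2 and 1; 22.7%) and 3 between Mc and DF (1 and 2; 18.2%). The other 6 were not called in each of these. Median log2 changes of the list were between -0.42 and 0.16, against medians of all genes between -0.03 and 0.02.

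Of 10 genes of Hgf activation and signalling, 8 were tested, Hgfac and Hpn being too low. St14, a membrane protease that can activate the precursor, was at 88.9 ± 15.8 FPKM in TAC and 11.4 ± 4.22 in Epi, against 0.61 ± 0.38 in Mc and 0.64 ± 0.31 in DP. Spint1, encoding an inhibitor of such proteases, was at 101 ± 6.98 in TAC and 24.3 ± 7.76 in Epi, against 0.92 ± 0.48 in Mc and 4.66 ± 1.03 in DP. Between Mc and TAC 5 of the 8 were called, 1 higher and 4 lower in Mc, where 21.1% of all genes were called, with a median log2 change of -1.84 against -0.03 over all genes. Between Mc and Epi 6 were called, all lower (22.7% of all genes), with a median of -2.94 against 0. Between Mc and DP 2 were called, 1 higher and 1 lower in Mc (23.7% of all genes). Between Mc and DF 4 were called, 1 higher and 3 lower (18.2%). Cd44, a surface glycoprotein known as a partner of Met, was higher in Mc than in DP, at 201 ± 23.1 against 90.4 ± 2.01 (1.14 ± 0.33, adjusted p = 0.0132). Between DP and TAC 4 were called, all lower in DP (27.5% of all genes), with a median of -1.42 against -0.03, and Hgf itself was higher in DP.

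Of 13 genes of Kit signalling, 6 were called between Mc and TAC, 5 higher and 1 lower in Mc (21.1% of all genes), with a median log2 change of 0.80 against -0.03 over all genes. Between Mc and Epi 6 were called, again 5 and 1 (22.7%), with a median of 0.77 against 0. Between Mc and DP 1 was called (23.7% of all genes). Between Mc and DF none was in limma (18.2% of all genes), with 3 at an unadjusted p under 0.05. The adaptor gene Gab2 was at 10.8 ± 3.47 FPKM in Mc, 9.59 ± 0.12 in DP, 0.44 ± 0.22 in TAC and 0.24 ± 0.10 in Epi. The Src family kinase gene Fyn was at 30.0 ± 7.30 in Mc and 0.18 ± 0.05 in Epi (log2 change 4.70 ± 0.35, adjusted p = 2.83e-09). Ptpn6, encoding a phosphatase that restrains Kit, was lower in Mc than in Epi, at 0.06 ± 0.08 against 6.70 ± 0.68 (-2.86 ± 0.34, adjusted p = 1.13e-06). Stat5a, a transcription factor gene that acts downstream of Kit, was lower in Mc than in DP, at 10.7 ± 0.93 against 25.3 ± 8.86 (-1.13 ± 0.37, adjusted p = 0.0281).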

How the data were processed

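The authors deposited 1 table of FPKM values, covering all 28 libraries, with no pooled values. Per the submitters' processing notes, TopHat2 2.0.3, Bowtie2, Cufflinks 2.1.1 and the build mm10 were used; the sources used here do not give their roles, the annotation or any scaling between libraries. Per the labels' protocols, RNA with an integrity number of at least 8.8 was used, and 6 ng was reverse transcribed and amplified.

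Of 23235 rows, 220 identical to another were dropped. Genes with at least 1 FPKM in 2 libraries (15052) were tested on log2(FPKM + 1) with limma 3.58.1 in R 4.3.3: 1 mean per population, empirical Bayes moderation with a mean trend (residual degrees of freedom 14, prior 5.72), 11 comparisons, each adjusted by Benjamini-Hochberg. The procedure was tested on simulated data. Populations have 2 libraries, so all share 1 spread per gene.

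Named genes are the 8 members, up to 3 called genes of each pathway list with the largest change, with their values in other populations, and the 3 genes most alike. The members, lists, comparisons and marker genes were chosen with earlier results of these data known. Positions and promoters are RefSeq's for GRCm38.p6; all 8 symbols matched. Alternatives were the pseudocount, the filter, quantile normalization, a replicate block, 1 mouse line alone, each library left out and, chosen after seeing the data, single replicates of the Sox2-GFP line.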

Additional observations from a re-analysis of the deposited data

How the results depend on the processing

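Of 657 values of single genes recomputed under alternatives, 609 kept their direction and their side of the threshold, 30 lost a call, 14 gained one and 4 reversed. Reversals were in the Sox2-GFP line: as reported, the log2 changes of Ednrb and Met between G/AA-DP and ZZ-DP were -0.82 and -1.21. Leaving out each library gave -1.65 to 0.0048 for Ednrb and -3.12 to 0.70 for Met, both upper ends without ZZ-DP replicate 2, and replicate 1 alone gave 0.27 and 0.56. The number of the 8 genes called between ORS and Epi, 1 as reported, was 2 with a pseudocount of 0.1, with the replicate block or with the K14-H2BGFP line alone, and 0 with a pseudocount of 5 or quantile normalization; leaving out each library gave 0 to 1. Between TAC and Mx, 4 became 2 with a pseudocount of 5 and 2 to 4 with each library left out. Between G-DP and AA/ZZ-DP, 2 became 1 with a pseudocount of 0.1 or no filter, and 1 to 2 with each library left out. Between G/AA-DP and ZZ-DP, leaving out each library gave 0 to 1.

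Counts over all genes also moved. With a pseudocount of 5 they fell from 2738 to 1695 (Mc against DF), 3568 to 2330 (Mc against DP), 3183 to 2086 (Mc against TAC), 1007 to 668 (DP against DF) and 4134 to 2628 (DP against TAC). For TAC against Mx 191 became 121 with quantile normalization, 336 with the replicate block and 51 to 85 without 1 library. For G-DP against AA/ZZ-DP 76 became 28 with a pseudocount of 0.1 and 13 to 282 without 1 library. For HF-SC against HF-ORS 662 became 1125 with the replicate block, 396 without HF-SC replicate 2 and 316 without HF-ORS replicate 1. DP against DF gave 605 without DP replicate 1 and 539 without DF replicate 1, and ORS against Epi, 1480 as reported, 947 without ORS replicate 2. G/AA-DP against ZZ-DP, 1 as reported, gave 4 with no filter, 15 without ZZ-DP replicate 1, 5 without G/AA-DP replicate 2, and 7 or 8 with replicate 2 or 1 alone. Where 1 library is left, it is assumed to vary like the other populations. The causes were not tested.

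Replicates share numbers whose meaning the labels do not give. As a check of pairing, each library's departure from its population mean was compared with that of its namesake. For K14-H2BGFP mice the 28 correlations ranged between 0.0574 and 0.275, 27 of them over 0.1. The single pairs gave 0.283 (G-DP with AA/ZZ-DP), 0.285 (ZZ-DP with G/AA-DP) and 0.071 (HF-SC with HF-ORS). With the replicate block Met was called between DP and TAC (adjusted p = 0.0485, limma), Edn1 between ORS and Epi (0.048) and Edn3 between G-DP and AA/ZZ-DP (0.0352), while Ednrb was not called in the last (0.0553). Depth being unknown, no limit can be put on genes listed at 0, such as Hgf in Mc.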
